A study of Homo sapiens with 2 samples.

Results

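The 10 genes described here are BCL2 family members of 3 classes: anti-apoptotic (BCL2, BCL2L1, BCL2L2 and MCL1), effector (BAX and BAK1) and BH3-only (BID, BAD, BCL2L11 and PMAIP1). They were chosen by symbol and class, and all 10 were found among the 19362 genes of the deposited table. Transcripts were sequenced from FTC-133, an established line from a human follicular thyroid carcinoma, and the study asked how silencing CHI3L1, which encodes a secreted chitin-binding glycoprotein, alters their transcripts. There was 1 library of cells transfected with CHI3L1 siRNA (19467345 reads in listed genes) and 1 of cells transfected with control siRNA (15837449 reads). Both libraries are of the same line, and the labels name no other allele or agent. Neither condition was replicated, so every difference is one between 2 single libraries, with no replicate check and no p-value. Intervals in parentheses are exact 95% intervals from read counts. They cover counting error only and may be too narrow, since the protocols describe no molecular identifiers.

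BCL2 family proteins decide whether the outer mitochondrial membrane is breached during apoptosis. BAX and BAK1 form the pores that release cytochrome c, the anti-apoptotic members hold them in check, and the BH3-only proteins either engage the effectors or occupy the binding groove of the anti-apoptotic members. Carcinoma cells, thyroid ones included, commonly depend on anti-apoptotic members for survival.

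CHI3L1 itself had 48.6 CPM (reads scaled to a common library size) in the cells given siRNA against it and 140 CPM in those given control siRNA, a ratio of 0.347 (0.321 to 0.374). Of 6 thyroid markers 5 were measured. NKX2-1 stood at 112 and 88.6 CPM and PAX8 at 71.2 and 82.8 CPM in the CHI3L1 siRNA and control siRNA libraries. TSHR stood at 9.23 and 8.73 CPM in the same libraries. TG and FOXE1 were under 1 CPM in each library, and SLC5A5 was not analysed here. FOXE1 had 19 reads in the CHI3L1 siRNA library and 1 in the control siRNA library, a ratio of 15.4 (2.45 to 640). All 5 epithelial markers were measured, with no common direction. KRT8 stood at 55.9 and 51.8 CPM, KRT18 at 24.7 and 31.6 and EPCAM at 4.001 and 2.02 CPM in the same libraries. CDH1 stood at 1.59 and 1.08 and KRT19 at 0.257 and 0.506 CPM. Of the 4 that averaged 1 CPM or more, EPCAM alone was past 1.5-fold with 1 CPM added to each level (plain ratio 1.98, 1.29 to 3.08). KRT19, below that mean, had a plain ratio of 0.507 (0.130 to 1.76). Of 5 immune markers only PTPRC was measured, at 0.410 and 0.759 CPM. Of 4 endothelial markers 3 were measured, with PECAM1 at 3.80 and 7.34, KDR at 4.05 and 2.47 and VWF at 1.90 and 1.45 CPM. Plain ratios were 0.517 (0.381 to 0.699) for PECAM1 and 1.64 (1.11 to 2.48) for KDR. With 1 CPM added, PECAM1 alone of these was past 1.5-fold. The part of these markers in the results below was not tested.

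Among the 10 genes, those that differed by at least 1.5-fold between the libraries were all of the BH3-only class. In the CHI3L1 siRNA library BID, PMAIP1 and BAD were lower and BCL2L11 was higher, while no anti-apoptotic or effector gene was past 1.5-fold by that rule. Folds set the CHI3L1 siRNA level over the control siRNA level on a log2 scale, with 1 CPM added to each, so folds of low genes come out too small, and 1.5-fold is 0.58 on this scale. For BCL2, the lowest of the 10 genes, this decides the call, since its ratio with nothing added was 1.53 (1.14 to 2.07). The counts were 1 higher, where 7.73% of the 14815 genes averaging 1 CPM or more over the libraries were that far higher, and 3 lower, where 13.4% were that far lower. Centred on the median fold of genes averaging 50 CPM or more, the counts were again 1 and 3, where the shares over all genes were 4.63% and 17.4%. All 10 genes passed the mean of 1 CPM. At 2-fold, 2 of the 10 (BID and PMAIP1) were lower, against 4.41% of all tested genes, and 0 were higher, against 1.03%. The median log2 fold was -0.014 over the 10 genes and 0.014 over all tested genes. In RNA from whole cultures, fewer cells that carry a transcript and less of it per cell cannot be told apart.

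**Figure D1:**
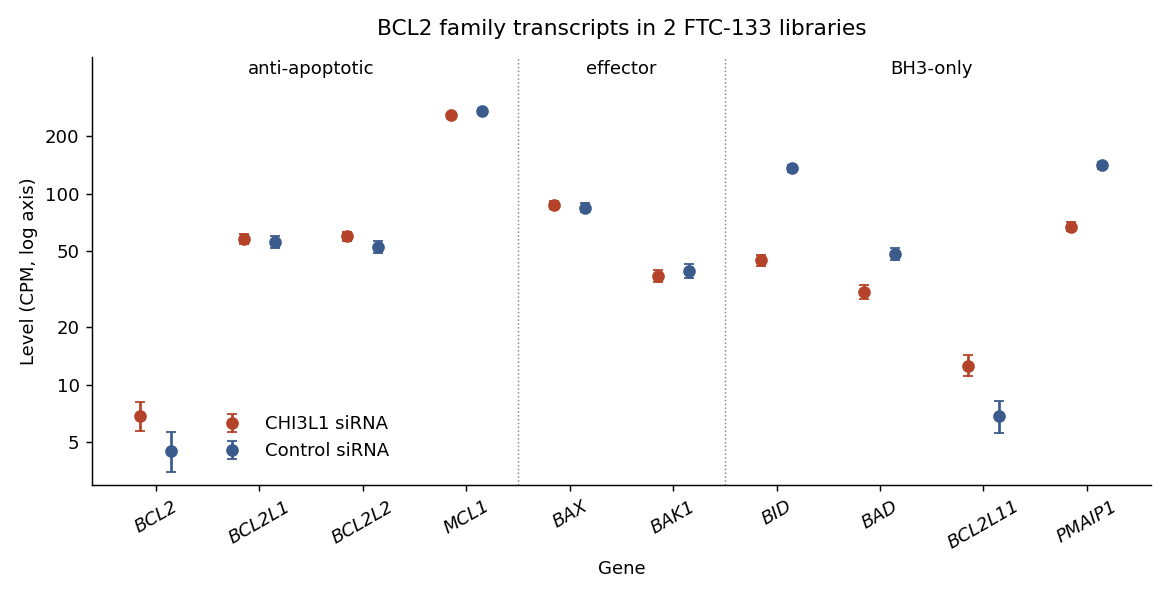
Level of each of the 10 genes in CPM (log axis) in the CHI3L1 siRNA library (left point of each pair) and the control siRNA library (right point), 1 library each, with exact 95% Poisson intervals of the read count as bars. The pairs of BID, BAD and PMAIP1 stand apart with the CHI3L1 siRNA point lower, and that of BCL2L11 with it higher. The bars of BCL2 and, narrowly, of BCL2L2 do not overlap either, with the CHI3L1 siRNA point higher. The pairs of MCL1, BAX, BAK1 and BCL2L1 are nearly level.

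Summed over each class, the BH3-only genes stood at 155 CPM in the CHI3L1 siRNA library and 332 CPM in the control siRNA library, a ratio of 0.467 (0.447 to 0.489). The anti-apoptotic genes summed to 382 and 384 CPM in the same libraries, a ratio of 0.996 (0.963 to 1.03), and the effectors to 124 CPM in each, a ratio of 1.00 (0.943 to 1.06). The BH3-only class therefore made up 23.5% of the reads of the 10 genes in the CHI3L1 siRNA library and 39.6% in the control siRNA library. As deposited, its ratio stood at 0.561 without BID, 0.461 without PMAIP1, 0.439 without BAD and 0.438 without BCL2L11. Folds in these libraries followed transcript length, however, with a median log2 fold of -0.62 for coding genes of at most 1000 nt and 0.25 for those above 4000 nt. After a correction for transcript length, GC content and coding length, the log2 ratio of the BH3-only sums was -0.41, against -1.10 as deposited. That corrected value rested on BID: without BID it was 0.044, against -0.83 without PMAIP1, -0.45 without BAD and -0.48 without BCL2L11. With that correction 1 of the 10 genes was at least 1.5-fold lower (BID) and 2 were at least 1.5-fold higher (BCL2L11 and BAX), against 6.09% and 7.55% of all 12660 coding genes that could be corrected.

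**Figure D2:**
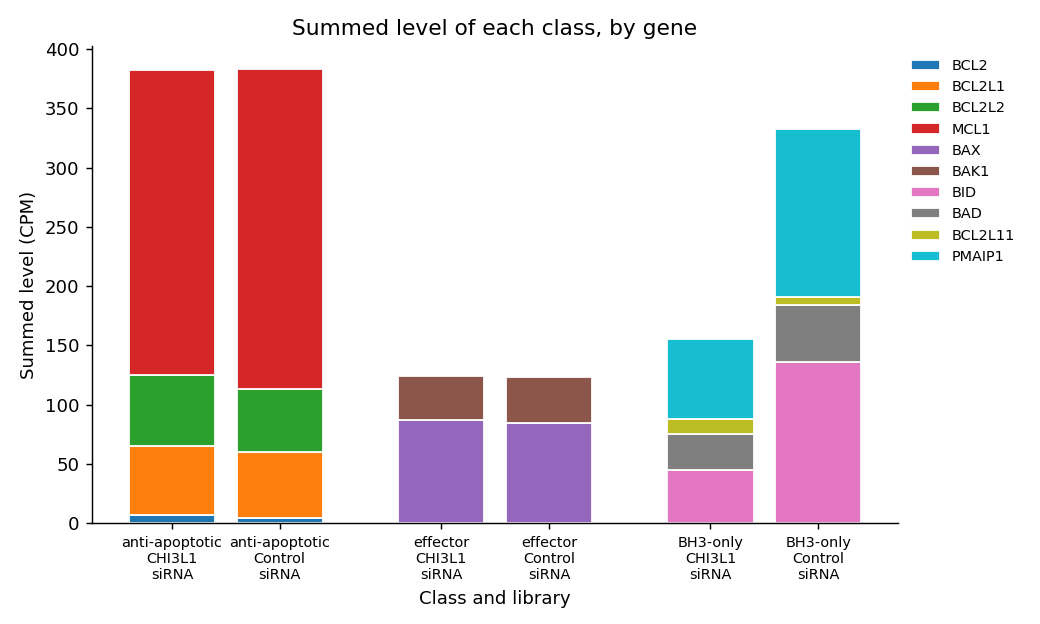
Summed level in CPM of the anti-apoptotic, effector and BH3-only genes, stacked by gene, in the CHI3L1 siRNA library (left bar of each pair) and the control siRNA library (right bar). The BH3-only bars reach 155 and 332 CPM, and the bars of each other pair end within 2 CPM of each other.

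The promoters of 4 of the genes are shown because they belong to the largest differences on each side (BID and PMAIP1 lower, BCL2L11 higher) and to the effector with the most matches (BAX). Each is the 250 bases before the RefSeq start nearest to the annotated transcript, 5' to 3' on the gene's strand, on GRCh38.p14. The RefSeq table matched 8 of the 10 genes, all but BCL2L2 and MCL1. It holds 5 entries for BID, of which only the 1 printed was searched. The windows of BID and BCL2L11 lie inside the gene spans given below. Capitals mark matches on either strand to 5 motifs: the E-box CACGTG, the cAMP response element core TGACGT (which ATF and CREB factors bind), the forkhead motif GTAAACA (which FOXO factors bind), the GC box GGGCGG and the CCAAT box, spelled CCAAT. In BID, 2 GC box matches overlap.
BID (chr22:17774043-17774292, minus strand): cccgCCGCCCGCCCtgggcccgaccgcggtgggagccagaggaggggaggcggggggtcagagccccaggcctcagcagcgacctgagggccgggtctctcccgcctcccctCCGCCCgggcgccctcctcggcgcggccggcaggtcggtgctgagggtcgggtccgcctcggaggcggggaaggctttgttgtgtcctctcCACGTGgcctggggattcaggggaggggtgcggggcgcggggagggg
PMAIP1 (chr18:59899746-59899995, plus strand): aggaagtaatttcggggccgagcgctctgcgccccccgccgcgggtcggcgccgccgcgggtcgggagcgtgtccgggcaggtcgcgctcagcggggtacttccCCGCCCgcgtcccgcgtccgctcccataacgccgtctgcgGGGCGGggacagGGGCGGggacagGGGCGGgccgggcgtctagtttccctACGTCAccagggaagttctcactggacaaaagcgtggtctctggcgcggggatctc
BCL2L11 (chr2:111120664-111120913, plus strand): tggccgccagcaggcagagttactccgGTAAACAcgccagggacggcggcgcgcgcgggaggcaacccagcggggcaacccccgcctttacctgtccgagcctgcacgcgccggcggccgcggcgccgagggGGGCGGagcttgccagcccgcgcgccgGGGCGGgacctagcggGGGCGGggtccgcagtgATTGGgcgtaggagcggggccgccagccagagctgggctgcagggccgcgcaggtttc
BAX (chr19:48954625-48954874, plus strand): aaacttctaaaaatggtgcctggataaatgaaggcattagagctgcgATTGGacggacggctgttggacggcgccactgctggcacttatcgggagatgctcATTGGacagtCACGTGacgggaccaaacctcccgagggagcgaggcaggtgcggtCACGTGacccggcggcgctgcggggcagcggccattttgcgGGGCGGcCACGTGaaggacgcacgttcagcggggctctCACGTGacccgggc
PMAIP1 held 1 match to TGACGT, on the opposite strand from 56 to 51 bases before the start, a motif found in 7.10% of 35116 promoters of the same length. BCL2L11 held 1 match to GTAAACA, from 223 to 217 bases before the start, where 2.98% of promoters hold it. BAX held 4 matches to CACGTG, while 6.34% of promoters hold at least 1 and 0.0797% at least 3. BID held 1 match to CACGTG and 3 to the GC box, PMAIP1 held 4 and BCL2L11 3 to the GC box, while 42.6% of promoters hold at least 1 GC box and 13.9% at least 3. BAD, whose promoter is not printed, held 1 match to TGACGT. These are matches of letters in 1 window and say nothing of binding.

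BID encodes the BH3-only protein that CASP8 cleaves to carry a death receptor signal to mitochondria. The gene (ENSG00000015475, minus strand of chromosome 22, 17734138 to 17774770 on GRCh38) stood at 44.9 CPM (876 reads) in the CHI3L1 siRNA library and 135.8 CPM (2148 reads) with control siRNA. Of the 10 genes it had the fold farthest from 0, with a log2 fold of -1.57 and a ratio of 0.331 (0.305 to 0.358), at percentile 0.942 of all tested genes. Its annotated transcript of 2495 nt falls in a length class (above 2000 and up to 4000 nt) in which 10.1% of genes were at least 1.5-fold lower and the median log2 fold was 0.032. After the correction its log2 fold was -1.47, and no exon of another annotated gene overlaps it.

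PMAIP1 encodes NOXA, which binds MCL1 and promotes its degradation. The gene (ENSG00000141682, plus strand of chromosome 18, 59899948 to 59904306) stood at 67.1 CPM (1308 reads) in the CHI3L1 siRNA library and 141.0 CPM (2230 reads) with control siRNA. That is a log2 fold of -1.06 and a ratio of 0.476 (0.444 to 0.510), at percentile 3.74. Unlike that of BID, this difference was not past 1.5-fold after the correction, where the log2 fold was 0.031. The coding sequence of PMAIP1 is only 162 nt long, and 13 corrected genes have one that short or shorter, with a median log2 fold of -0.83. Corrected for transcript length and GC content without coding length, its log2 fold was -0.40.

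BAD encodes a BH3-only protein that binds BCL2, BCL-XL and BCL-w and is held inactive by phosphorylation under growth factor signalling. The gene (ENSG00000002330, minus strand of chromosome 11, 64269830 to 64284704) stood at 30.6 CPM (596 reads) in the CHI3L1 siRNA library and 48.6 CPM (768 reads) with control siRNA. That is a log2 fold of -0.65 and a ratio of 0.629 (0.565 to 0.701), an interval that reaches inside 1.5-fold. Among genes with transcripts above 1000 and up to 2000 nt, as for BAD (1157 nt) and PMAIP1 (1948 nt), 23.4% were at least 1.5-fold lower and the median log2 fold was -0.24. After the correction the log2 fold of BAD was -0.17. GPR137, on the opposite strand, overlaps 23.7% of its exons and stood at 28.9 CPM in the CHI3L1 siRNA library and 23.5 CPM in the control siRNA library. Whether counting used strand is not known from the sources used here, so reads in the overlap cannot be told apart.

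BCL2L11 encodes BIM, which binds every anti-apoptotic member and can engage BAX directly. The gene (ENSG00000153094, plus strand of chromosome 2, 111119378 to 111168447) stood at 12.6 CPM (246 reads) in the CHI3L1 siRNA library and 6.83 CPM (108 reads) with control siRNA. That is a log2 fold of 0.80 and a ratio of 1.85 (1.47 to 2.34), at percentile 97.3, and the interval again reaches inside 1.5-fold. Its annotated transcript has 1522 nt, a length at which 2.81% of genes were at least 1.5-fold higher, and after the correction its log2 fold was 1.23. The gene has 17 annotated coding transcripts, and with the length of all its exons together (6658 nt) in the correction the log2 fold was 1.05. An antisense long non-coding gene, MIR4435-2HG, overlaps 10.9% of its exons and had more reads than BCL2L11 itself, at 32.2 CPM in the CHI3L1 siRNA library and 30.2 CPM in the control siRNA library.

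**Figure D3:**
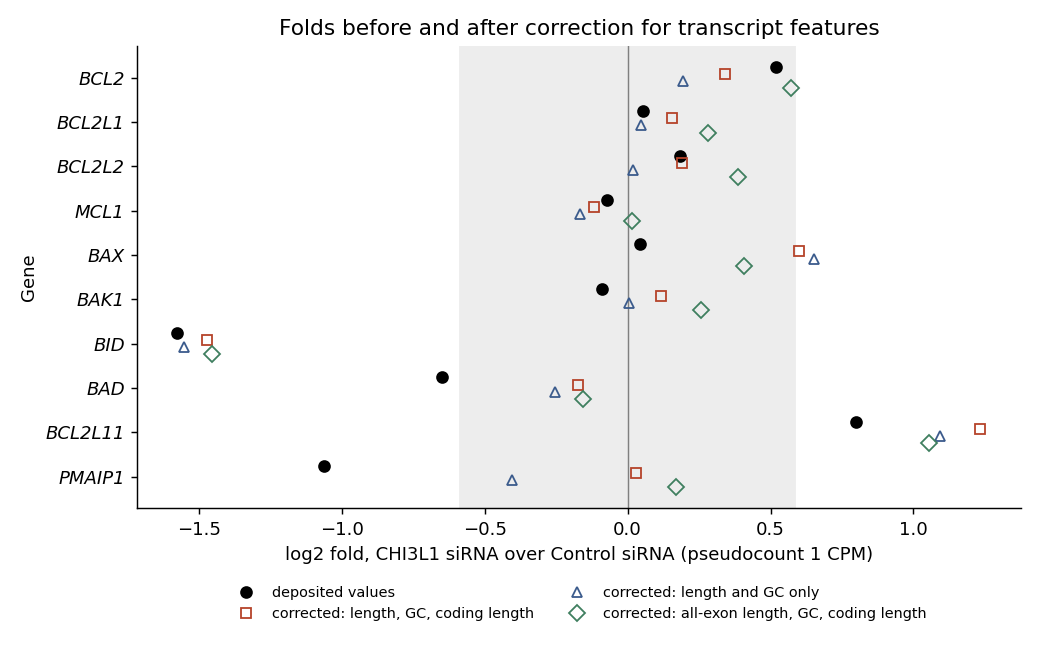
Log2 fold of each gene, CHI3L1 siRNA over control siRNA with a pseudocount of 1 CPM, as deposited (filled circles) and after 3 corrections for transcript features (open symbols); the grey band is the range within 1.5-fold. BID lies left of the band (-1.57 as deposited) and BCL2L11 right of it under all 4, while PMAIP1 and BAD lie left of it as deposited and within it after each correction.

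MCL1, a short-lived anti-apoptotic protein, had the most reads of the 10 genes in each library. The gene (ENSG00000143384, minus strand of chromosome 1, 150574551 to 150579738) stood at 257 CPM (5017 reads) in the CHI3L1 siRNA library and 271 CPM (4279 reads) with control siRNA, a ratio of 0.951 (0.913 to 0.991). BCL2L1, which encodes BCL-XL, stood at 58.1 CPM (1133 reads) in the CHI3L1 siRNA library and 55.9 CPM (884 reads) in the control siRNA library, a ratio of 1.04 (0.951 to 1.14). The short splice form BCL-XS, which promotes death, is counted with it (ENSG00000171552, chromosome 20, 31664452 to 31723989). The antisense gene ABALON overlaps 43.0% of its exons but had 0.872 and 1.26 CPM in the CHI3L1 siRNA and control siRNA libraries.

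BCL2L2, which encodes BCL-w, stood at 59.8 CPM (1165 reads) in the CHI3L1 siRNA library and 52.5 CPM (831 reads) in the control siRNA library, a ratio of 1.14 (1.04 to 1.24). A read-through gene on the same strand, BCL2L2-PABPN1, shares 19.4% of its exons (ENSG00000129473, chromosome 14, 23298790 to 23311759), so reads there are uncertain under any strand setting, and PPP1R3E, on the opposite strand, overlaps 4.92%. BCL2 itself was the lowest of the 10 genes, at 6.87 CPM (134 reads) in the CHI3L1 siRNA library and 4.49 CPM (71 reads) in the control siRNA library (ENSG00000171791, chromosome 18, 63123346 to 63320128). Its log2 fold of 0.52 lay just inside the 1.5-fold rule. With a transcript of 7461 nt BCL2 falls among the longest genes, of which 14.4% were at least 1.5-fold higher with a median log2 fold of 0.25, and after the correction its log2 fold was 0.34.

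BAX, the effector that moves from the cytosol to mitochondria, stood at 87.0 CPM (1697 reads) in the CHI3L1 siRNA library and 84.4 CPM (1335 reads) in the control siRNA library (ENSG00000087088, chromosome 19, 48954815 to 48961798). Its ratio was 1.03 (0.959 to 1.11). BAX has an annotated transcript of 793 nt, and genes of at most 1000 nt had a median log2 fold of -0.62, with 52.1% at least 1.5-fold lower. After the correction its log2 fold was 0.60, just past 1.5-fold, and 0.41 with the length of all its exons (2587 nt). BAK1, the effector that resides in the outer mitochondrial membrane, stood at 37.0 CPM (721 reads) in the CHI3L1 siRNA library and 39.4 CPM (623 reads) in the control siRNA library (ENSG00000030110, chromosome 6, 33572547 to 33580293). Its ratio was 0.939 (0.842 to 1.05), and its reads are uncertain where 2 annotated pseudogenes share its sequence.

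**Figure D4:**
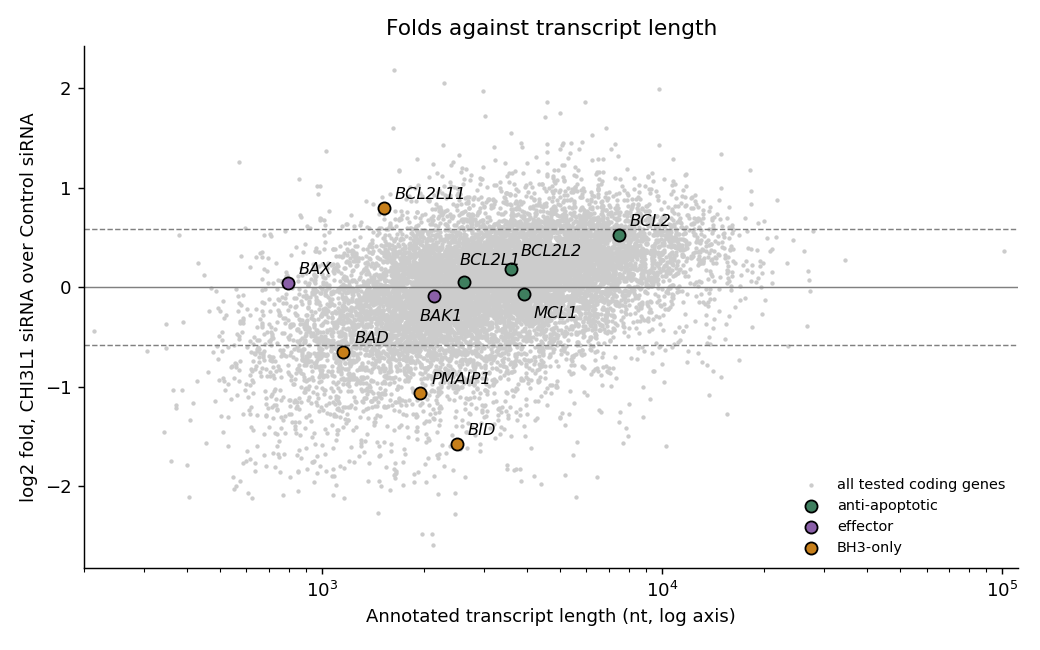
Log2 fold, CHI3L1 siRNA over control siRNA, against annotated transcript length in nt (log axis) for all tested coding genes (grey) and the 10 BCL2 family genes (coloured by class); dashed lines mark 1.5-fold. The grey points lie lower at short lengths, with BAX (0.04) and BCL2L11 (0.80) above most genes of their length and BID (-1.57) below.

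Levels of different genes were compared per length, as CPM per kb of annotated transcript, with 1 transcript per gene. The order depends on that choice. BAX has a transcript of 793 nt but 2587 nt over all its exons, and BID 2495 and 4446 nt. With all-exon lengths MCL1 would stand above BAX in each library. In the CHI3L1 siRNA library the order was BAX (109.8), MCL1 (65.4), PMAIP1 (34.4), BAD (26.4), BCL2L1 (22.3), BID (18.0), BAK1 (17.3), BCL2L2 (16.6), BCL2L11 (8.29) and BCL2 (0.921). In the control siRNA library it was BAX (106.5), PMAIP1 (72.4), MCL1 (68.8), BID (54.4), BAD (42.0), BCL2L1 (21.4), BAK1 (18.4), BCL2L2 (14.6), BCL2L11 (4.49) and BCL2 (0.602). The counting intervals of neighbours overlapped for BID with BAK1 and BAK1 with BCL2L2 in the CHI3L1 siRNA library, and for PMAIP1 with MCL1 in the control siRNA library. By these transcript lengths BID thus ranked 6 in the CHI3L1 siRNA library and 4 in the control siRNA library.

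Binding partners stood in different proportion in the deposited values of the libraries, with counting intervals apart where a BH3-only gene was the denominator. Per kb, MCL1 stood at 1.90 times (1.79 to 2.02) PMAIP1 in the CHI3L1 siRNA library and 0.951 times (0.903 to 1.00) in the control siRNA library. BCL2L1 stood at 0.843 times (0.762 to 0.932) BAD in the CHI3L1 siRNA library and 0.510 times (0.463 to 0.563) in the control siRNA library. Between BH3-only genes, BCL2L11 stood at 0.460 times (0.398 to 0.531) BID in the CHI3L1 siRNA library and 0.0824 times (0.0673 to 0.10003) in the control siRNA library. The ratio of BCL2 to BAX is widely used as an index of the family's balance. It was 0.00839 (0.00699 to 0.01001) in the CHI3L1 siRNA library and 0.00565 (0.00439 to 0.00718) in the control siRNA library. Its intervals overlapped slightly, which does not show that the ratios were equal. The size of each per kb ratio also rests on the 1 transcript taken per gene. Most of these proportions moved with the correction for transcript features. The log2 fold of MCL1 minus that of PMAIP1 was 0.99 as deposited and -0.15 corrected. That of BCL2L1 minus BAD was 0.71 and 0.33, and that of BCL2 minus BAX 0.48 and -0.26. With all-exon length and without coding length, MCL1 minus PMAIP1 was -0.15 and 0.24. BCL2 minus BAX was 0.17 and -0.46 in the same order. The signs of both thus depended on which correction was used. The log2 fold of BCL2L11 minus that of BID was 2.37 as deposited and 2.71 corrected.

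Of 13 further genes of the family, 9 were measured and 8 passed the mean of 1 CPM, with 1 at least 1.5-fold higher and 0 lower. That gene was HRK, a BH3-only member, at 6.21 CPM in the CHI3L1 siRNA library and 3.48 CPM in the control siRNA library, a ratio of 1.78 (1.29 to 2.50). Of the other BH3-only genes, BMF stood at 6.16 and 9.23 CPM and BBC3, which encodes PUMA, at 3.54 and 4.11 CPM in the CHI3L1 siRNA and control siRNA libraries, and BIK was not analysed here. With these, 2 of 7 measured BH3-only genes were at least 1.5-fold higher and 3 lower as deposited, where the shares over all tested genes were 7.73% and 13.4%. After the correction 2 were higher and 2 lower, where the shares over all corrected genes were 7.55% and 6.09%. The higher genes were HRK (0.75, but 0.35 without coding length) and BCL2L11. The lower genes were BID and BMF. BMF was just past 1.5-fold (-0.59), with -0.33 with all-exon length and -0.79 without coding length. BNIP3L, a mitophagy receptor related to BNIP3, was 1.5-fold higher after the correction (0.59) and stood at 411 and 352 CPM as deposited. BNIP3, a mitophagy receptor of the outer mitochondrial membrane, had the highest mean of the further genes, at 449 CPM in the CHI3L1 siRNA library and 529 CPM in the control siRNA library. Its reads are uncertain, since 39 pseudogenes of it are annotated.

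Downstream of the mitochondrion, 1 of 4 genes of the apoptosome and its caspases was at least 1.5-fold lower and 1 was higher. CYCS, which encodes cytochrome c, stood at 245 and 382 CPM in the CHI3L1 siRNA and control siRNA libraries, with a log2 fold of -0.64 as deposited and -0.27 after the correction. Its reads are uncertain, with 40 annotated pseudogenes. APAF1, the scaffold of the apoptosome, stood at 34.2 CPM in the CHI3L1 siRNA library and 22.0 CPM in the control siRNA library (log2 fold 0.61, and 0.36 after the correction). CASP9, the protease that the apoptosome activates, stood at 7.95 and 8.47 CPM and CASP6 at 21.7 and 19.5 CPM in the CHI3L1 siRNA and control siRNA libraries.

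Of 7 inhibitor of apoptosis genes and their antagonists, BIRC6, a large ubiquitin ligase, was at least 1.5-fold higher (97.0 CPM in the CHI3L1 siRNA library and 63.6 CPM in the control siRNA library). HTRA2, a protease released from mitochondria, was at least 1.5-fold lower (36.3 and 55.5 CPM in the same libraries), and XIAP, with the highest mean of the 7, stood at 108 and 125 CPM. After the correction BIRC6 (0.30) and HTRA2 (-0.58) were both within 1.5-fold, while BIRC3, a ubiquitin ligase at 1.54 and 1.01 CPM, was past it (0.67). BIRC3 had only 30 and 16 reads, and its ratio as deposited was 1.52 (0.803 to 2.99), an interval that includes 1. Of 10 death receptor pathway genes, 0 were past 1.5-fold in either direction with 1 CPM added. FADD had a ratio of 0.662 (0.573 to 0.766) with nothing added and lay just inside the rule at a log2 fold of -0.57. CASP8, the protease that cleaves BID, stood at 32.4 CPM in the CHI3L1 siRNA library and 30.2 CPM in the control siRNA library, and the receptor gene TNFRSF1A, with the highest mean of these, at 171 and 141 CPM.

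Of 6 mitochondrial and cytoskeletal partners, 2 were at least 1.5-fold lower and 0 higher. They were VDAC3, an outer membrane channel (160 CPM in the CHI3L1 siRNA library and 324 CPM in the control siRNA library), and DYNLL1, the dynein light chain that tethers BIM (175 and 323 CPM). After the correction their log2 folds were -0.57 and -0.10. VDAC1, with the highest mean of these, stood at 296 and 234 CPM, and VDAC2, which binds BAK1, at 96.1 and 112 CPM. Of 5 genes of MCL1 turnover, USP9X, whose product removes ubiquitin from MCL1, was at least 1.5-fold higher (236 and 145 CPM), and HUWE1, whose product adds it, stood at 268 and 214 CPM. Corrected log2 folds were 0.51 for USP9X and -0.15 for HUWE1. BTRC, of the same list, had a ratio of 1.51 (1.28 to 1.79) with nothing added and lay just inside the rule at a log2 fold of 0.56.

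Among transcription factors with BH3-only target genes, 1 of 5 measured was at least 1.5-fold higher and 0 were lower. FOXO3, which can activate BCL2L11, stood at 76.5 CPM in the CHI3L1 siRNA library and 44.0 CPM in the control siRNA library, a ratio of 1.74 (1.59 to 1.90), with a log2 fold of 0.78 as deposited and 0.37 after the correction. ATF4, which can activate PMAIP1, stood at 344 and 285 CPM in the same libraries. Over all 45 tested genes of these lists, 5 were at least 1.5-fold higher and 4 lower, shares of the same order as the 7.73% and 13.4% over all tested genes, and the median log2 fold was 0.098. After the correction 3 were higher (HRK, BNIP3L and BIRC3) and 1 lower (BMF), against 7.55% and 6.09%. Antisense exons overlap, among others, HTRA2 (LOXL3 and AUP1), APAF1 (ANKS1B), BNIP3L (PNMA2), CASP6 (MCUB), BMF (BMF-AS1) and FADD (AP000879.1). Pseudogenes are annotated for VDAC1 (13), DYNLL1 (7), ATF4 (4), VDAC2 (4), XIAP (3) and VDAC3 (1). The reads of all these genes are therefore uncertain.

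**Figure D5:**
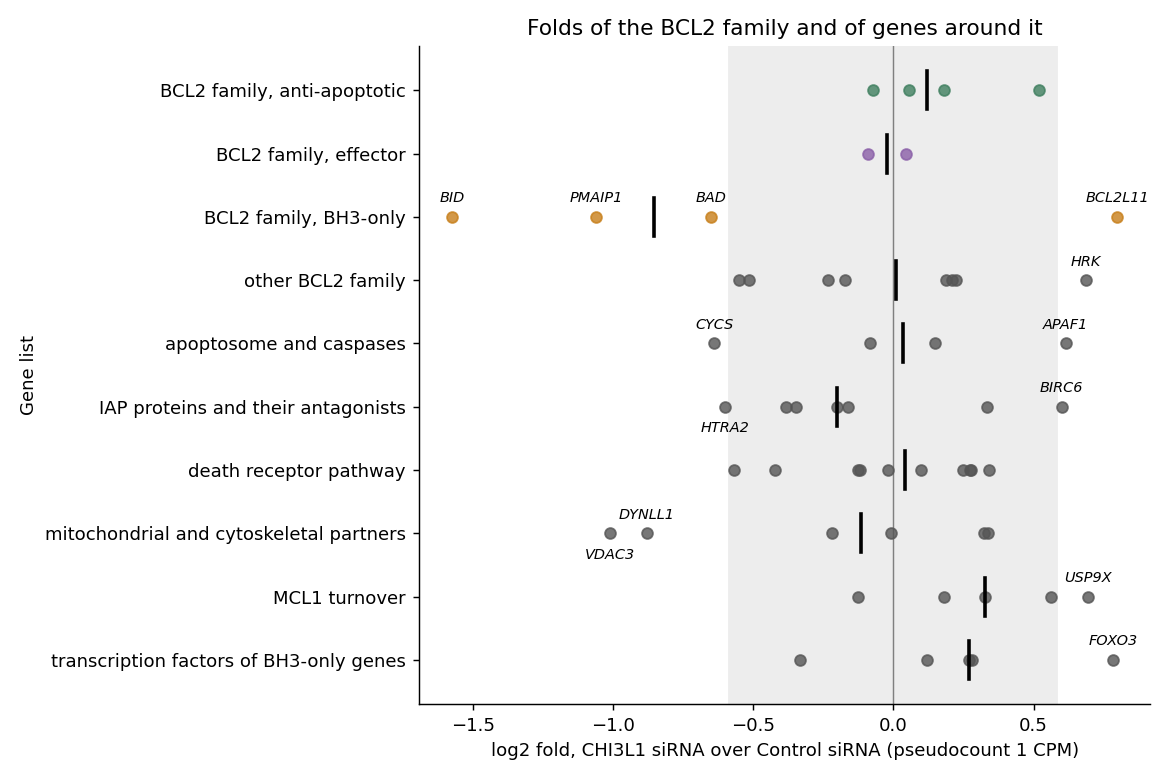
Log2 fold, CHI3L1 siRNA over control siRNA with a pseudocount of 1 CPM, of the tested genes of each list (points, 1 per gene) with the list's median (black bar); the grey band is the range within 1.5-fold and genes outside it are named. The BH3-only row has all 4 of its genes outside the band, with VDAC3 (-1.01) the lowest point of the other lists.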

How the data were processed

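Per the labels' protocols, total RNA (1 ug, from Trizol) went into TruSeq libraries. The authors deposited 1 table of normalised values (CPM) for 19362 Ensembl genes. Tools listed, per the submitters' processing notes, are HISAT2, featureCounts, Trimmomatic, FastQC and MultiQC, with the GRCh38 build, no versions and no order. The sources used here do not state the annotation release, normalisation tool, strand setting or low-count filter. Each deposited CPM equals 0.001 plus a whole read number, times a step of 0.0513 (CHI3L1 siRNA) or 0.0632 CPM (control siRNA). All values (100%, within 0.01 read) fitted, giving 19467345 and 15837449 reads.

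Symbols came from an Ensembl table (19265 identifiers), and positions, exons, length and GC content from GENCODE 29 on GRCh38, with 1 transcript per coding gene (principal, then best supported, then longest). Folds were corrected by taking away natural cubic splines of coding length, GC content and transcript length (5 degrees of freedom each), which took up 36.1% of the variance of folds over coding genes in no list. It could be made for 85.5% of tested genes. No count model was run. Steps were tested on simulated data with a trend in transcript length alone, so the GC content and coding length terms were not tested.

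Some listed genes are not reported here, and list counts leave them out. Members, lists and the correction were chosen with earlier results of these data known. Named genes are the 10 members and, per list, genes past 1.5-fold and the one with the highest mean. CASP6, CASP8, CASP9, VDAC2, BBC3, FADD, BTRC and the other cell markers were named after their values were seen. So were genes past 1.5-fold after the correction alone (BMF, BNIP3L and BIRC3) and the printed promoters and motifs. Python 3.11.15, scipy 1.17.1 and patsy 1.0.2 were used.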

Additional observations from a re-analysis of the deposited data

How the results depend on the processing

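BID stayed at least 1.5-fold lower under all 11 alternatives that gave it a value (log2 fold between -1.67 and -1.41). BCL2L11 was at least 1.5-fold higher under 8 of 9, with 0.43 at a pseudocount of 10 CPM. PMAIP1 and BAD were within 1.5-fold after each correction for transcript features, and PMAIP1 changed sign (0.031, and 0.17 with all-exon length). The corrections without coding length and with all-exon length, the corrected proportions and the corrected sums without 1 gene were added after seeing the data.

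Percentages in parentheses are the shares over all genes at the same setting. The count of higher genes was 0 at a pseudocount of 10 CPM (3.32%), at 2-fold (1.03%) and with counting intervals wholly past 1.5-fold (3.58%). It was also 0 with means of 10 CPM or more (8.30%) and with transcripts of at least 2000 nt (10.3%). With the correction (7.55%) and with that without coding length (7.95%) it was 2. The count of lower genes was 2 at a pseudocount of 10 CPM (6.82%), where BAD was at -0.53. It was also 2 at 2-fold (4.41%) and with intervals wholly past 1.5-fold (8.40%). With the correction (6.09%), without coding length (6.27%) and with all-exon length (6.79%) it was 1. At 2000 nt or more (7.15%), where BID is the sole BH3-only gene, it was also 1.

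The median log2 fold of the BH3-only class (-0.86) was -1.06 with means of 10 CPM or more and -1.57 at 2000 nt or more. With the correction, without coding length and with all-exon length, it was -0.072, -0.33 and 0.0061. In the same order the effector median (-0.023) was 0.36, 0.33 and 0.33, and the log2 ratio of class sums was -0.41, -0.68 and -0.33 for BH3-only and 0.46, 0.48 and 0.36 for effector genes. For all 10 genes, the ratio of sums (-0.34) was -0.072, -0.19 and 0.0018, and the median was 0.14 with the correction and 0.27 with all-exon length. The anti-apoptotic sums (-0.0055) gave -0.100 without coding length and 0.12 with all-exon length, with a median of 0.33 there. Centring lowered all folds by construction, which put the ratios of sums at -1.20 (BH3-only), -0.11 (anti-apoptotic), -0.098 (effector) and -0.44 (all 10). Directions of MCL1, BAK1, BAX and BCL2L1 turned under at least 1 setting and none is claimed. Equal totals, a trimmed mean of log ratios, a pseudocount of 0.5 CPM and no filter moved none of these.

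No paired analysis was possible because each group has 1 library and no test was made. With 71 to 246 reads, the folds of BCL2 and BCL2L11 are the least precise.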
